A study of Mus musculus with 12 samples.

Results

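Small noncoding RNAs that work inside ribonucleoprotein particles were compared between genotypes in the mouse pallium, the dorsal forebrain region from which the cortex develops. The 8 RNAs were chosen by gene symbol out of the 54735 symbols listed in every library: Rn7s1 and Rn7s2 (signal recognition particle RNA), Rn7sk (7SK RNA), Rpph1 (RNase P RNA), Rmrp (RNase MRP RNA), Terc (telomerase RNA), and Rny1 and Rny3 (Y RNAs). All 8 were found, and all 8 passed the filter of a mean of at least 1 TPM over the 12 libraries, as did 11764 genes in all. They were listed with their high level in these libraries known, so levels and shares are given as a description with no test.

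RNA came from C57/Bl6 embryos at E13.5, with 4 embryos in each of 3 genotypes. Controls were Rnu11 wt/flx::Trp53 wt/wt. Embryos named cKO were Rnu11 flx/flx::Trp53 wt/wt, and embryos named dKO were Rnu11 flx/flx::Trp53 flx/flx. All 12 embryos carried Emx1-Cre, which recombines floxed alleles in pallial progenitors and their descendants, so vessel, blood and microglial cells of the dissected tissue keep their alleles, and the controls are heterozygous for the Rnu11 deletion. The U11 RNA made from Rnu11 recognises the rare introns cut by the minor spliceosome, and Trp53 encodes p53. Libraries were stranded and made from total RNA, so RNAs without a poly(A) tail were included. Values are TPM, a length-scaled transcript abundance with a fixed sum of 1000000 per library. A share below is a share of TPM, not of reads, and it weights short RNAs upward. Read depth cannot be recovered from TPM, so values carry no counting interval or detection floor.

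As background, the signal recognition particle brings ribosomes that make secreted and membrane proteins to the endoplasmic reticulum, and its RNA is the scaffold. 7SK RNA holds the kinase P-TEFb in an inactive store and so limits release of paused RNA polymerase II. RNase P trims the 5′ ends of tRNA precursors, the related RNase MRP takes part in ribosomal RNA processing, telomerase RNA is the template for telomere repeats, and Y RNAs bind the Ro60 and La proteins. RNA polymerase III makes all of these except Terc, which in mammals is an RNA polymerase II transcript.

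The sequence of the signal recognition particle genes decides what their levels can say. Rn7s1 and Rn7s2 both lie on chromosome 12, on opposite strands (GENCODE M21, GRCm38), and each annotated RNA is 300 bases long. The annotated transcripts were identical at 300 of 300 bases. All 251 windows of 50 bases in either RNA are present in the other. A read inside them carries no base that tells the 2 genes apart, and how the deposited values divided such reads is not given in the sources used here. Rn7s6, another copy, matched at 98.6% over 214 bases.

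The 2 Y RNAs are shown because they moved together across embryos while standing far apart in level. Capitals mark GGTCCGA, a stretch of the lower stem, the part of Y RNAs to which Ro60 binds:
Rny1: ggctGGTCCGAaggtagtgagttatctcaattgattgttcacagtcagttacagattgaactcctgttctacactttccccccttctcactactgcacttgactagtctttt
Rny3: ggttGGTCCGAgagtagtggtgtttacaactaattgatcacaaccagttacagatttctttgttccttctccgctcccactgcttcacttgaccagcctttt
They were identical at 80 of 112 aligned columns, or 71.4%. GGTCCGA began at base 5 in both and was present on the given strand in 0.0919% of annotated transcripts within 10% of Rny1's length and in 0.149% of those near Rny3's. Both lie on chromosome 6, Rny1 at chr6:47788069-47788180 on the minus strand and Rny3 at chr6:47781624-47781725 on the plus strand, with Pdia4 as the nearest protein-coding gene. These were the only members of the 8 with TTTT, the usual RNA polymerase III stop signal, in the last 10 annotated bases, a feature of 6.14% of all annotated transcripts.

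Terc and Rn7sk are shown at their 5′ ends. Capitals mark CTAACCC in Terc, whose first bases hold the template for the telomere repeat, and each GATC in Rn7sk, a motif that recurs where HEXIM1 binds:
Terc, first 100 of 423 bases: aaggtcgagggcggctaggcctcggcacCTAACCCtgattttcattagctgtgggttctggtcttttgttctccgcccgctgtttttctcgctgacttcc
Rn7sk, first 110 of 331 bases: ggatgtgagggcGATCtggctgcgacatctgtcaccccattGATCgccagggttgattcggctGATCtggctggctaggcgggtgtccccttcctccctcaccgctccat
CTAACCC began at base 29 and was present on the given strand in 1.28% of annotated transcripts within 10% of Terc's length. GATC, which reads the same on both strands, began at bases 13, 42 and 64, and it was present in 66.1% of transcripts near Rn7sk's length. Terc lies at chr3:96414437-96414859 on the minus strand, and no 50-base window of it was found in another annotated transcript. Rn7sk lies at chr9:78175303-78175633 on the minus strand, and 192 of its 282 windows were shared with near copies, led by Gm24447 at 532 TPM on average.

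The symbol Rmrp has 2 annotated transcript models, and the shorter, of 271 bases, was used here. On which model the deposited Rmrp values rest is not given in the sources used here. The 2 catalytic RNAs overlap other genes, so the stretches outside 50-base windows shared with a gene of another symbol are shown:
Rpph1, bases 1 to 35: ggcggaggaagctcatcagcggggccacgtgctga
Rpph1, bases 269 to 319: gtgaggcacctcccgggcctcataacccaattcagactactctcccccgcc
Rmrp, bases 1 to 35: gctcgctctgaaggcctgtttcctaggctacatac
Rmrp, bases 160 to 271: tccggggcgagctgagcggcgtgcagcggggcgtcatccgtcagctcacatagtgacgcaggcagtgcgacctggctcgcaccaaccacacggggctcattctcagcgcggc
Rpph1 lies at chr14:50807449-50807767 on the minus strand. Its middle 233 bases are also an untranslated exon of Ccnb1ip1 on the same strand, so strand does not separate their reads. Rmrp lies at chr4:43492788-43493058 on the minus strand, and 124 of its 271 bases lie opposite an exon of a Ccdc107 transcript on the plus strand. Aligned end to end, Rmrp and Rpph1 matched at 47.7% of columns, although the particles share most of their proteins.

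Together the 8 RNAs made up at least 53.2% of TPM in every library. Their summed share was 57.5, 61.0, 55.7 and 58.0% in control embryos 1 to 4, with a mean of 58.0 ± 2.19% (SD, n = 4). It was 57.0, 54.7, 60.7 and 57.0% in cKO embryos, with a mean of 57.3 ± 2.52% (SD, n = 4). The dKO embryos had 57.1, 53.2, 58.9 and 60.9%, with a mean of 57.5 ± 3.25% (SD, n = 4). The 3 ranges overlapped in every pair, and the group means differed by -0.681, -0.492 and 0.189 percentage points for cKO minus control, dKO minus control and dKO minus cKO. Nuclear protein-coding genes, by comparison, took 15.6 ± 0.764% of control, 17.4 ± 1.84% of cKO and 14.9 ± 0.475% of dKO libraries (SD, n = 4 each).

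**Figure D1:**
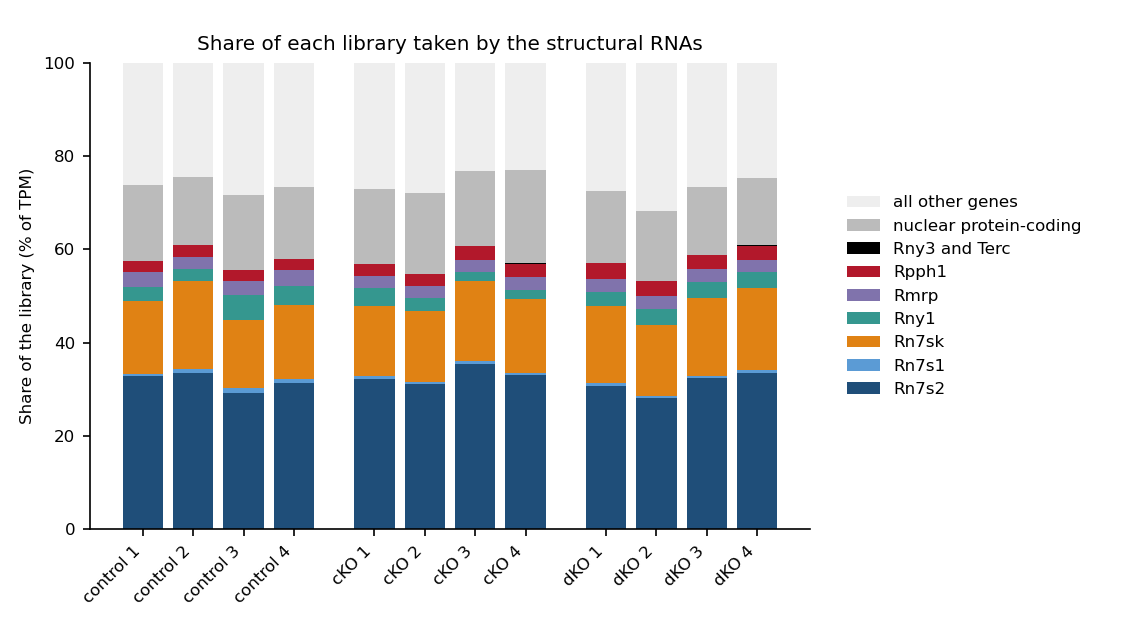
Stacked bars give the share of TPM (%) in each of the 12 libraries for the structural RNAs, for nuclear protein-coding genes and for all other genes, with genotype and embryo number on the horizontal axis. The 8 RNAs reach between 53.2% (dKO 2) and 61.0% (control 2) of each bar, and no genotype stands apart.

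Label and data differed on 1 point: the set was named for abundance, and not all 8 RNAs were abundant. Rn7s2 ranked 1st and Rn7sk 2nd of all genes in 12 of 12 libraries. Rpph1, Rmrp and Rny1 ranked between 4th and 7th, and Rn7s1 between 9th and 17th. Rny3 ranked between 87th and 357th, and Terc between 830th and 1684th. The order Rn7s2, Rn7sk, then Rny1, Rmrp and Rpph1, then Rn7s1, Rny3 and Terc held in all 12 libraries. It is an order of TPM, which is scaled by length. The place of Rn7s1 against Rn7s2 depends on how reads of their identical sequence were divided. Within the middle trio the order of Rmrp and Rpph1 varied: Rmrp exceeded Rpph1 in 4 of 4 control, 3 of 4 cKO and 0 of 4 dKO libraries. In cKO embryo 4 the values were nearly equal, at 27927.9 and 27920.3 TPM. Rny1 exceeded Rmrp in 2 of 4 control, 2 of 4 cKO and 4 of 4 dKO libraries, and Rpph1 in 4, 2 and 3 of 4. The ratio of the highest to the lowest of 12 libraries was 1.25 for Rn7s2, 1.29 for Rn7sk, 1.30 for Rmrp, 1.47 for Rpph1, 1.66 for Terc, 2.35 for Rn7s1, 2.76 for Rny1 and 4.12 for Rny3.

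As a check of the labels, Rnu11 stood at 640.5 TPM on average in control, 144 in cKO and 164 in dKO, and Trp53 at 3.82, 4.24 and 1.22 TPM. Pallial markers were present in all libraries, with 7 genes summing to 188 to 207 TPM in control, 210.5 to 259 in cKO and 118 to 176 in dKO. Of 5 ventral telencephalon markers, 4 reached at most 0.421 TPM and Dlx1 at most 3.32. These 5 summed to 1.31 to 1.83 TPM in control, 2.39 to 3.85 in cKO and 1.22 to 2.74 in dKO. The 5 blood globins summed to 1474.5 to 2341 TPM over all embryos. Choroid plexus markers summed to 40.9 to 99.5 TPM in control, 71.3 to 247 in cKO and 66.4 to 293 in dKO, with Kl at most 0.0518. Vessel markers summed to 7.84 to 10.8, 16.2 to 21.5 and 10.3 to 16.7 TPM, and mesenchyme and skin markers to 16.7 to 28.2, 29.7 to 35.4 and 25.2 to 38.7 TPM. The 5 microglial markers summed to 5.92 to 6.81 TPM in control, 20.9 to 29.4 in cKO and 6.97 to 8.72 in dKO. Mitochondrial ribosomal RNA took 4.59% of dKO embryo 2 and 2.05% of control embryo 1, against at most 0.859% in the other libraries, so results were also computed without these 2 libraries. With bulk tissue, fewer cells of a type and less RNA per cell cannot be told apart.

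Changes between genotypes were tested with limma on log2(TPM + 1) over all 11764 genes, with Benjamini-Hochberg adjustment over all of them and a call at an adjusted p under 0.05. The fitted difference of a low gene is understated by the added 1. Of the 8 RNAs, 1 was called in cKO against control (Terc, lower), where 35.4% of all genes were called and 1.09% were called lower. Also 1 of 8 was called in dKO against control (Rpph1, higher), where 5.19% of all genes were called and 1.79% called higher. The comparison of dKO with cKO likewise gave 1 of 8 (Terc, higher), where 39.4% of all genes were called and 0.612% called higher. The median log2 difference of the 8 was -0.34 in cKO against control beside 0.25 over all genes tested, -0.07 beside -0.01 in dKO against control, and 0.16 beside -0.26 in dKO against cKO. Any 2 of the 3 comparisons share a group of embryos, so their values are not independent. Nothing states whether embryos of a genotype were littermates.

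Most genes thus read higher in cKO than in the other groups, and the size of that shift depended on how the libraries were scaled. When the 8 RNAs were taken out and all other genes were set to an equal sum, the median gene was still 0.23 higher on the log2 scale in cKO than in control, with 3377 genes called higher and 128 lower. When nuclear protein-coding genes were set to an equal sum, the median fell to 0.12, and when libraries were centred on their median gene it was near 0, with 438 called higher and 348 lower. Centring moved the members down in cKO against control by the size of the shift, and the direction of Rn7s2 and Rpph1 there turned with it.

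**Figure D2:**
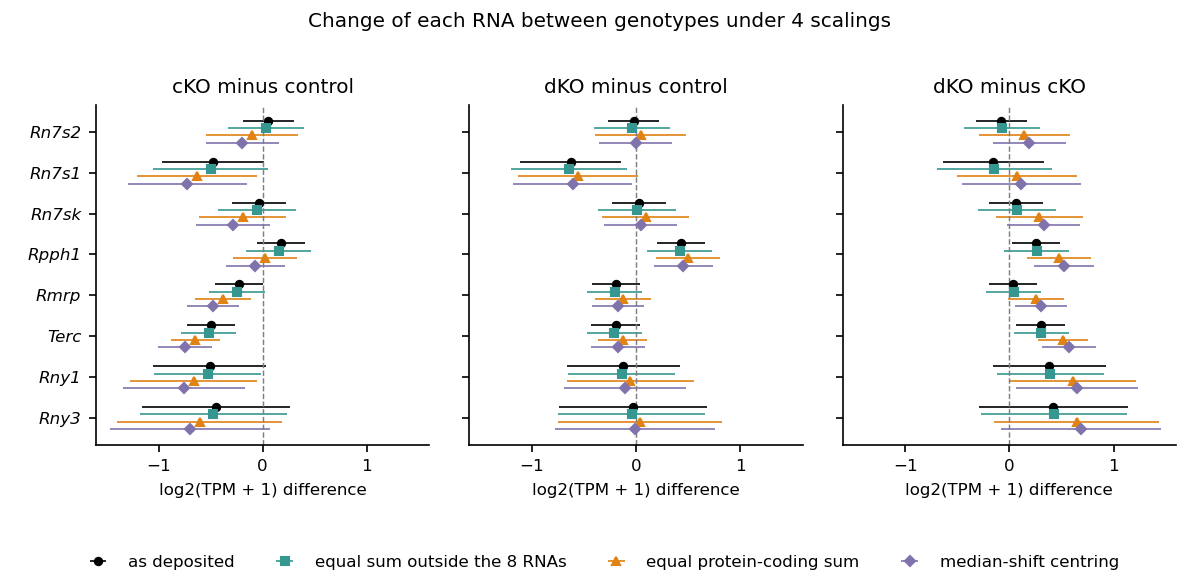
Points give the log2(TPM + 1) difference of each RNA between 2 genotypes and bars its 95% confidence interval from limma, for the values as deposited and for 3 other scalings of the libraries. Terc lies below 0 in cKO against control under all 4 scalings, and Rpph1 lies above 0 in dKO against control under all 4.

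Telomerase RNA had the clearest difference. Terc read 34.9, 40.8, 39.8 and 36.0 TPM in control embryos. Terc values in cKO were 24.6, 25.5, 28.9 and 27.4 TPM. Terc values in dKO were 40.8, 31.7, 31.1 and 29.2 TPM. Every cKO embryo lay below every control and every dKO embryo, while the control and dKO ranges overlapped. Group means were 37.9 ± 2.86, 26.6 ± 1.93 and 33.2 ± 5.17 TPM (SD, n = 4 each). Terc fell in cKO against control by 0.50 on the log2 scale (SE 0.108, limma adjusted p = 0.00616, lower in 4 of 4 embryos). The fall was called under all 19 other settings, from -0.74 to -0.46, with adjusted p between 0.00159 and 0.0221. Against cKO, Terc was 0.30 higher in dKO (SE 0.108, limma adjusted p = 0.0423). That call was kept in 8 of 19 other settings, with differences from 0.20 to 0.57 and adjusted p from 0.0139 to 0.09997, and leaving out dKO embryo 1, the highest, ended it (difference 0.20, adjusted p = 0.0963), as did leaving out both libraries rich in mitochondrial ribosomal RNA (0.32, adjusted p = 0.0603). Between dKO and control the difference was -0.19 (95% interval -0.43 to 0.04, limma adjusted p = 0.346). The microglial, pallial, ventral telencephalon, vessel, and mesenchyme and skin marker sums given above separated cKO from control. Each was higher in all 4 cKO embryos than in all 4 controls. The part of these sums in the level of Terc was not tested. Most genes read higher in cKO as deposited, and of the 7 pallial markers 1 was called, higher. Under centring 2 of the 7 were called, and 1 was higher and 2 lower at an unadjusted limma p under 0.05. Neurod6 (50.3 to 123.5 TPM) and Tubb3 (42.2 to 96.4 TPM) were the largest parts of the pallial sum.

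The proteins of telomerase gave 1 called gene. Of 7 listed, 5 passed the filter, and 1 of 5 in cKO against control stands beside the 34.3% of all genes called higher. Tert, the catalytic subunit, did not pass, at 0.471, 0.699 and 0.670 TPM on average in control, cKO and dKO. Wrap53, which brings telomerase to Cajal bodies, was that gene. It stood at 3.795 ± 0.474, 6.23 ± 0.780 and 4.36 ± 0.125 TPM (SD, n = 4 each), a rise of 0.59 in cKO against control (limma adjusted p = 0.00134) that was also called under protein-coding rescaling and centring. Its fall in dKO against cKO, by 0.43 (limma adjusted p = 0.00518), was not called under either of them (adjusted p = 0.0541 and 0.201). As deposited that fall was 1 of 5, beside 38.8% of all genes called lower. Wrap53 lies head to head with Trp53 on chromosome 11, on the opposite strand and with 0 bases of overlap. It thus neighbours an allele that differs by design in dKO, while control and cKO are both Trp53 wt/wt. Any part of that allele in the level of Wrap53 was not tested. Dkc1, the pseudouridine synthase that stabilises Terc, stood at 11.2, 11.6 and 9.59 TPM and was not called in any comparison.

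RNase P RNA was highest in the double mutant. Rpph1 read 23366, 24859.7, 23177 and 24143 TPM in control embryos. Rpph1 values in cKO were 25405, 24433, 30657 and 27920.3 TPM. Rpph1 values in dKO were 33986, 32519.5, 31159 and 31385 TPM. Every dKO embryo lay above every other embryo, and the cKO range overlapped the control range at its lower end. Group means were 23886 ± 772, 27104 ± 2788 and 32262 ± 1294 TPM (SD, n = 4 each), or 2.39, 2.71 and 3.23% of the library. Rpph1 rose in dKO against control by 0.43 on the log2 scale (SE 0.106, limma adjusted p = 0.0347, higher in 4 of 4 embryos). Over 19 other settings the difference ranged from 0.27, under quantile normalization, to 0.50. The call held in only 3 of them, and leaving out any 1 of the 8 embryos ended it (adjusted p from 0.0653 to 0.109). Without the 2 libraries rich in mitochondrial ribosomal RNA the difference was 0.42 (limma adjusted p = 0.132). Against cKO the difference was 0.26 (limma adjusted p = 0.0706), or 0.52 under centring (adjusted p = 0.0365), and between cKO and control 0.18 (adjusted p = 0.195). Ccnb1ip1, which shares the exon, read 25.2 ± 1.95, 28.2 ± 2.38 and 32.9 ± 3.84 TPM (SD, n = 4 each), with a difference of 0.37 in dKO against control (limma adjusted p = 0.0580). Reads of the shared exon can be assigned to either gene, so these 2 values are not independent. The pallial marker sum was lower in all 4 dKO embryos than in all 4 controls, and its part in the level of Rpph1 was not tested.

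**Figure D3:**
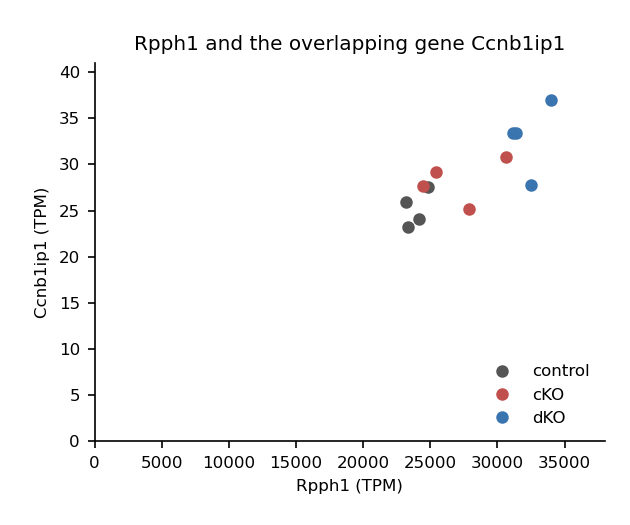
Each point is 1 embryo, with Rpph1 TPM on the horizontal axis and Ccnb1ip1 in TPM on the vertical axis, coloured by genotype. The 4 dKO embryos lie to the right at 31159 TPM or more of Rpph1, and Ccnb1ip1 reaches its highest value, 37.04 TPM, in dKO embryo 1.

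RNase MRP RNA was not called as deposited, with most controls above the mutants. Rmrp read 32469.6, 26637, 31093 and 32433 TPM in control embryos. Rmrp values in cKO were 26597, 24972, 25211 and 27928 TPM. Rmrp values in dKO were 28500.5, 26795, 26593 and 25316 TPM. Of the controls, 3 of 4 lay above all 8 mutant embryos, and control embryo 2 lay within the mutant range. Group means were 30658 ± 2756, 26177 ± 1369.7 and 26801 ± 1309 TPM (SD, n = 4 each). The log2 differences of -0.22 in cKO (95% interval -0.46 to 0.01, limma adjusted p = 0.113) and -0.19 in dKO (-0.42 to 0.04, adjusted p = 0.353) against control were not called as deposited. Centring gave -0.47 in cKO against control (limma adjusted p = 0.0293), where 2.96% of all genes were called lower. Quantile normalization gave -0.45 in dKO against control (limma adjusted p = 0.0117), where 567 of 11764 genes were called lower. In that setting a value depends only on the rank of the gene in its library. Rmrp ranked 4th or 5th in control and 6th or 7th in dKO libraries. Ccdc107, on the opposite strand, read 4.30, 4.42 and 3.76 TPM on average.

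The ratio of the 2 catalytic RNAs within a library does not depend on how that library was scaled. Rmrp over Rpph1 was 1.39, 1.07, 1.34 and 1.34 in control embryos. Ratios in cKO were 1.05, 1.02, 0.822 and 1.00. Ratios in dKO were 0.839, 0.824, 0.853 and 0.807. All 8 mutant embryos lay below all 4 controls, and the mutants overlapped each other. On the log2 scale the ratio was lower by 0.40 in cKO and by 0.62 in dKO than in control, each with p = 0.0286 in an exact two-sided permutation test, the smallest p that 70 assignments of 4 against 4 embryos allow. Adjusted over the 12 ratio tests both became 0.114, above 0.05. Even complete separation of 4 against 4 embryos cannot give a smaller p, so the adjusted value does not decide whether the ratio differs. Between the mutants the log2 difference was -0.22 (exact permutation p = 0.114, adjusted 0.196).

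**Figure D4:**
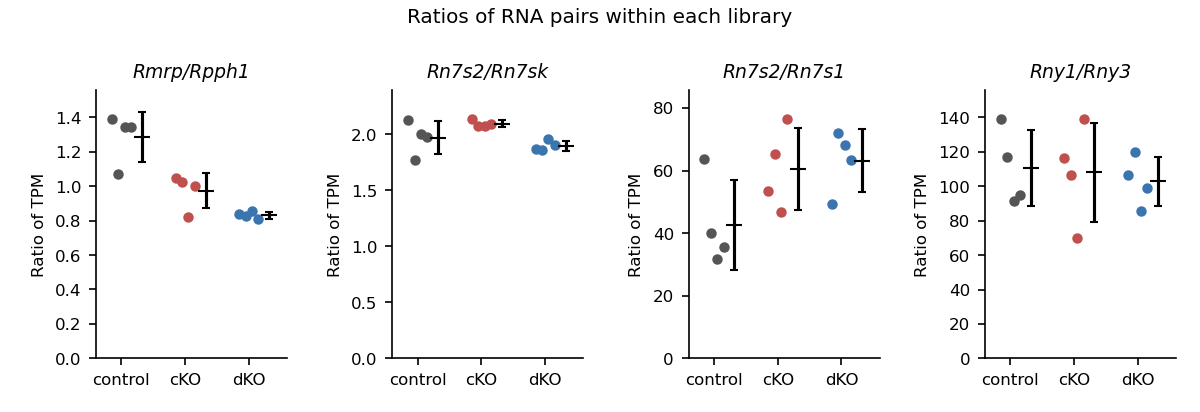
Points give the ratio of TPM of 2 RNAs in each embryo by genotype, with the mean and SD (n = 4) beside them. In the panel for Rmrp over Rpph1 the mutants lie between 0.807 and 1.05 and the controls between 1.07 and 1.39.

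Of 11 listed proteins of RNase P and RNase MRP, most of which sit in both particles, 10 passed the filter. In cKO against control 2 of 10 were called, both higher, beside 34.3% of all genes: Pop7 at 0.46 (limma adjusted p = 0.0269) and Pop5 at 0.42 (adjusted p = 0.0241). Between dKO and cKO 2 of 10 were called, both lower in dKO, beside 38.8% of all genes: Pop5 at -0.48 (limma adjusted p = 0.0111) and Pop1, the largest protein of the particles, at -0.40 (adjusted p = 0.0136). For dKO against control limma called 0 of 10, with 1 at an unadjusted p under 0.05. Under protein-coding rescaling and under centring it called 0 of 10 in each comparison, with 1 to 3 at an unadjusted p under 0.05.

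Signal recognition particle RNA was the most abundant of the 8. Rn7s2 read 328753, 334281, 292879 and 313632 TPM in control embryos. Rn7s2 values in cKO were 322024, 311927, 353795 and 331348 TPM. Rn7s2 values in dKO were 307329, 282254, 324673 and 335958 TPM. The 3 groups overlapped, with means of 317386 ± 18523, 329773 ± 17870.4 and 312553 ± 23381 TPM (SD, n = 4 each). Its log2 difference was 0.06 in cKO against control (95% interval -0.19 to 0.30, limma adjusted p = 0.703), -0.02 in dKO against control (-0.27 to 0.22, adjusted p = 0.939) and -0.08 in dKO against cKO (-0.32 to 0.17, adjusted p = 0.584). The signs of these small values turned under other scalings. The lowest value, in dKO embryo 2, belongs to the library richest in mitochondrial ribosomal RNA.

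Rn7s1, with the same sequence, read 5172, 8338, 9247 and 8839.7 TPM in control embryos. Rn7s1 values in cKO were 6036, 4776, 7555 and 4332 TPM. Rn7s1 values in dKO were 6243, 3927, 4757 and 5295 TPM. Of the controls, 3 of 4 lay above all mutant embryos and control embryo 1 lay among them. Means were 7899 ± 1856, 5675 ± 1446 and 5055 ± 971 TPM (SD, n = 4 each), and the log2 differences of -0.48 in cKO (95% interval -0.96 to 0.01, limma adjusted p = 0.111) and -0.63 in dKO (-1.12 to -0.14, adjusted p = 0.134) against control were not called. Without control embryo 1 both were, at -0.67 (limma adjusted p = 0.0297) and -0.82 (adjusted p = 0.0486). Rn7s1 over Rn7s2 averaged 0.0251 ± 0.00681 for controls, 0.0171 ± 0.00366 for cKO and 0.0162 ± 0.00287 for dKO (SD, n = 4 each), with overlapping groups in all 3 pairs (exact permutation p = 0.114, 0.0857 and 0.771, adjusted 0.196, 0.196 and 0.904). As the 2 transcripts are identical in sequence, the split between them is uncertain. Their sum, which does not need the split, averaged 32.5 ± 1.75% of control, 33.5 ± 1.89% of cKO and 31.8 ± 2.38% of dKO libraries (SD, n = 4 each), with overlapping ranges.

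Proteins of the particle and its receptor, 10 listed and 10 tested, gave 3 calls in cKO against control, all higher, where 34.3% of all genes were called higher. Srp72 stood at 7.97 ± 0.957, 12.02 ± 0.860 and 7.19 ± 1.45 TPM (SD, n = 4 each) with a difference of 0.54 (limma adjusted p = 0.00634), Srp14 rose by 0.33 (adjusted p = 0.0145) and Srp54c by 0.34 (adjusted p = 0.0205). Of the 10, 3 were called lower in dKO than in cKO (Srp72, Srp14 and Srp19), where 38.8% of all genes were, and in dKO against control limma called 0 of 10, with 0 at an unadjusted p under 0.05. Under centring limma called 0 of 10 in each comparison, with at most 1 at an unadjusted p under 0.05, and under protein-coding rescaling only Srp72 was, lower in dKO than in cKO (-0.48, limma adjusted p = 0.0300).

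7SK RNA varied little between embryos and was not called. Rn7sk read 154855, 188833, 146218 and 159001 TPM in control embryos. Rn7sk values in cKO were 150872, 150881, 170557 and 158599 TPM. Rn7sk values in dKO were 164459, 151818, 166264 and 176702 TPM. Control embryo 2 was the highest of the 12 and control embryo 3 the lowest, so the control range enclosed both mutant groups. Means were 162227 ± 18519.7, 157727 ± 9295 and 164811 ± 10205 TPM (SD, n = 4 each). Its log2 difference was -0.04 in cKO against control (95% interval -0.29 to 0.22, limma adjusted p = 0.819), 0.03 in dKO against control (-0.23 to 0.28, adjusted p = 0.931) and 0.06 in dKO against cKO (-0.19 to 0.32, adjusted p = 0.678).

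Rn7s2 over Rn7sk was 2.12, 1.77, 2.00 and 1.97 in control embryos. Its cKO values were 2.13, 2.07, 2.07 and 2.09. Its dKO values were 1.87, 1.86, 1.95 and 1.90. The cKO and dKO embryos did not overlap, and the controls spread across both. The log2 ratio was 0.14 lower in dKO than in cKO (0.922 and 1.06 on average, exact permutation p = 0.0286, adjusted 0.114 over the 12 tests).

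The partners of 7SK are the proteins that store and release P-TEFb. All 7 listed passed the filter, and 4 were called higher in cKO against control, beside 34.3% of all genes. Under centring limma called 0 of 7 there, with 2 at an unadjusted p under 0.05. The 4 were Hexim2 by 0.49 (limma adjusted p = 0.00950), Ccnt1 by 0.46 (adjusted p = 0.00552), Hexim1 by 0.35 (adjusted p = 0.0382) and Ccnt2 by 0.29 (adjusted p = 0.0313). Ccnt1, the cyclin subunit of P-TEFb, was also higher in dKO than in control, at 15.2 ± 1.42 against 10.4 ± 0.971 TPM (SD, n = 4 each). That rise of 0.50 (limma adjusted p = 0.0111) was also called under protein-coding rescaling and centring. Ccnt1 was the 1 of 7 called there, beside 1.79% of all genes called higher. In cKO its rise was called under protein-coding rescaling (0.31, limma adjusted p = 0.0330) but not under centring (0.21, adjusted p = 0.196). Between the mutants 3 of 7 were called, all lower in dKO, beside 38.8% of all genes. They were Hexim1, Ccnt2 and Larp7, which binds the 3′ end of 7SK, by 0.39, 0.26 and 0.34 (limma adjusted p = 0.0209, 0.0417 and 0.0343). None of these 3 was called under protein-coding rescaling or centring.

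Y RNAs varied most. Rny1 read 30102, 26305, 53452 and 41234 TPM in control embryos. Rny1 values in cKO were 38341, 29355, 19349.7 and 19704 TPM. Rny1 values in dKO were 30278, 34672, 35189 and 33738 TPM. Control and cKO embryos spread widely and overlapped, and the dKO embryos lay close together between them, with means of 37773 ± 12223, 26687 ± 9047 and 33469 ± 2211 TPM (SD, n = 4 each). The log2 difference was -0.51 in cKO against control (95% interval -1.05 to 0.04, limma adjusted p = 0.124), -0.12 in dKO against control (adjusted p = 0.843) and 0.38 in dKO against cKO (adjusted p = 0.227). Without cKO embryo 1 the first of these was called (-0.70, limma adjusted p = 0.0439), and without control embryo 3, the highest of the 12, it was -0.32 (adjusted p = 0.323).

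Rny3 read 217, 225, 584 and 434 TPM in control embryos. Rny3 values in cKO were 329, 275, 276 and 142 TPM. Rny3 values in dKO were 283, 289, 410.4 and 341 TPM. Control embryos 3 and 4 were the highest of all 12, as they were for Rny1, and cKO embryo 4 was the lowest. The log2 difference was -0.45 in cKO against control (95% interval -1.16 to 0.26, limma adjusted p = 0.280), -0.03 in dKO against control (-0.74 to 0.68, adjusted p = 0.978) and 0.42 in dKO against cKO (-0.29 to 1.13, adjusted p = 0.306). Single embryos set the size: the first was -0.18 without control embryo 3 and -0.19 without cKO embryo 4, and the third was 0.16 without cKO embryo 4 (limma adjusted p = 0.650, 0.669 and 0.724). Over the 12 embryos log2(TPM + 1) of Rny1 and Rny3 had a Pearson correlation of 0.84, with length, class and library scaling shared between the points. Their ratio averaged 111 ± 22.0 for controls, 108 ± 28.7 for cKO and 103 ± 14.3 for dKO (SD, n = 4 each), with overlapping groups.

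**Figure D5:**
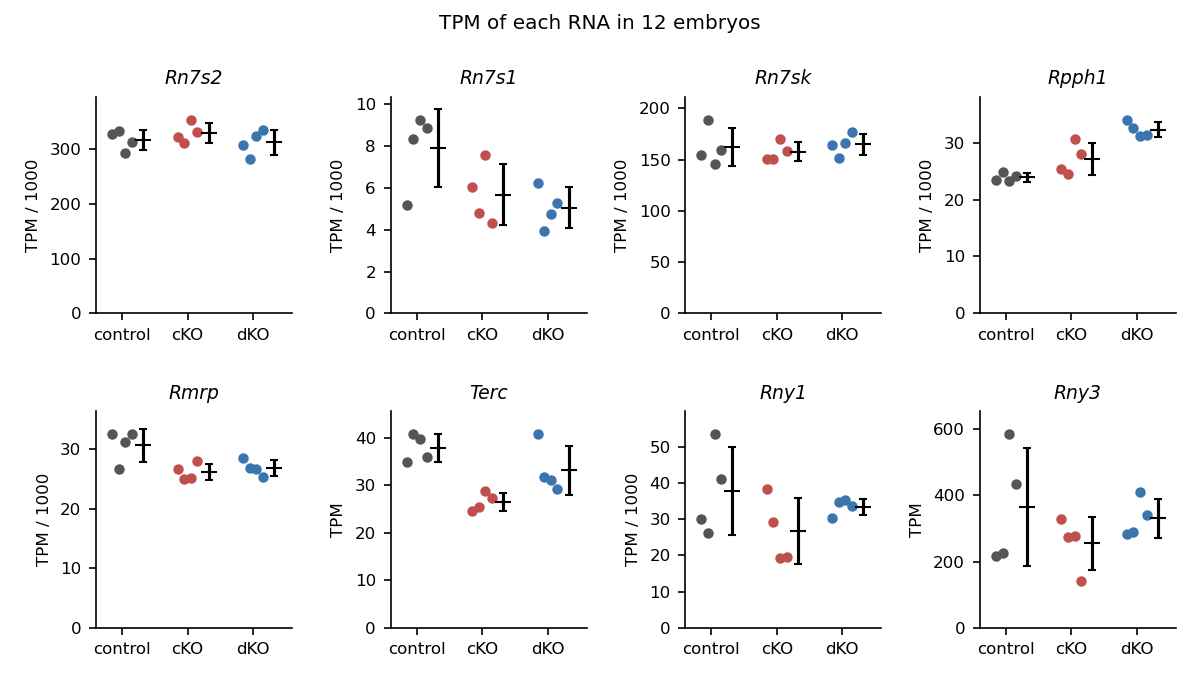
Points give TPM of each RNA in each embryo by genotype, with the mean and SD (n = 4) beside them, and every vertical axis starts at 0. Terc is low in the 4 cKO embryos at 24.6 to 28.9 TPM, Rpph1 is high in the 4 dKO embryos, and the remaining 6 panels show overlapping groups.

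Groups that do not overlap were counted over the same 11764 genes. In cKO against control 1 of 8 RNAs (Terc, lower) did not overlap, beside 33.7% of all genes in either direction and 0.910% lower. For dKO against control it was 1 of 8 (Rpph1, higher) beside 13.6% in either direction and 5.14% higher. Between the mutants it was 2 of 8 (Rpph1 and Terc, both higher in dKO) beside 33.2% in either direction and 0.417% higher in dKO.

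The proteins that bind Y RNAs gave 1 call, in cKO against control, where 34.3% of all genes were called higher. Of 6 listed and tested, Ybx1, an abundant RNA-binding protein, was higher in cKO than in control, at 381 ± 44.6 against 303 ± 14.96 TPM (SD, n = 4 each; log2 difference 0.32, limma adjusted p = 0.0360), and not under protein-coding rescaling or centring. Trove2, which encodes Ro60, stood at 13.8, 15.7 and 14.0 TPM and Ssb, which encodes La, at 48.0, 52.0 and 45.5 TPM in control, cKO and dKO, and neither was called.

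Subunits of RNA polymerase III, which makes most of the 8 RNAs, were called in numbers that depended on the scaling. Of 18 subunits 8 were called higher and 2 lower in cKO against control, beside 34.3% and 1.09% of all genes. Under centring these became 0 higher and 4 lower, and under protein-coding rescaling 1 higher and 4 lower. Over all 11764 genes these settings called 438 higher and 348 lower, and 1334 higher and 205 lower. For dKO against control 1 was called higher and 3 lower, beside 1.79% and 3.40% of all genes. Under centring it was 1 higher and 4 lower, beside 440 and 552 of 11764 genes. Between the mutants 0 were called higher and 8 lower in dKO, beside 38.8% of all genes lower. Under centring 1 was called lower, beside 451 of 11764 genes. Polr2e, a subunit shared by all 3 nuclear RNA polymerases, stood at 19.8 ± 3.04, 12.2 ± 1.92 and 10.9 ± 0.306 TPM (SD, n = 4 each), a fall of 0.65 in cKO (limma adjusted p = 0.00223) and of 0.80 in dKO (adjusted p = 0.00229). Polr2k, another shared subunit, stood at 3.71 ± 0.221, 2.34 ± 0.174 and 1.65 ± 0.290 TPM (SD, n = 4 each), a fall of 0.50 and 0.83 (limma adjusted p = 0.00245 and 3.06e-04). Both falls were called under protein-coding rescaling and centring as well. Polr3a, the largest subunit, was higher in cKO than in control by 0.43 (limma adjusted p = 0.00411), which centring reduced to 0.18 (adjusted p = 0.171).

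Of 17 initiation factors and regulators, 5 were called higher in cKO against control, beside 34.3% of all genes, led by Snapc4 (0.50, limma adjusted p = 0.00161) and Bdp1 (0.47, adjusted p = 0.00172). Under centring limma called 0 of 17, with 3 at an unadjusted p under 0.05. Against cKO 10 of 17 were called lower in dKO, beside 38.8% of all genes. Under centring 1 of 17 was called lower, beside 451 of 11764 genes. Snapc4 belongs to the complex that starts transcription of 7SK, RNase P and RNase MRP RNA, and Bdp1 to TFIIIB. Brf1, another part of TFIIIB, stood at 8.25 ± 0.740, 9.51 ± 1.09 and 6.01 ± 0.765 TPM (SD, n = 4 each) and was the 1 factor called in dKO against control. It fell there by 0.40 (limma adjusted p = 0.0409) and against cKO by 0.58 (adjusted p = 0.00168), and both falls were also called under protein-coding rescaling and centring. Maf1, the repressor of polymerase III, stood at 9.39, 9.40 and 8.48 TPM and was not called.

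Over all 84 listed partner genes, 74 of which were tested, 24 were called higher and 2 lower in cKO against control, 2 higher and 4 lower in dKO against control, and 0 higher and 27 lower in dKO against cKO. The shares of all genes called were 34.3% and 1.09%, 1.79% and 3.40%, and 0.612% and 38.8%. With libraries centred on the median gene the partner counts became 1 and 4, 2 and 5, and 0 and 2. Under centring 438 and 348, 440 and 552, and 247 and 451 of all 11764 genes were called higher and lower. Counted apart from the lists, 181 symbols of 5S ribosomal RNA were present, 20 of them averaging at least 1 TPM. They summed to 739 to 1244 TPM in control, 612 to 1189 in cKO and 551 to 1526 in dKO. Of 8 other polymerase III RNAs listed, Rn7s6 alone reached a mean of 1 TPM over the 12 libraries. Its group means were 10.9, 14.0 and 10.8 TPM, and it was not called.

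The genes most like each RNA across the 12 embryos were mostly other short RNAs or poorly characterised loci, by Pearson correlation of log2(TPM + 1), given as a description. Rny1 was followed most closely by Gm24407 (0.94), annotated as a small nuclear RNA, and Rny3 by Snord15b (0.92), a small nucleolar RNA. Rmrp was followed by the histone gene Hist1h3h (0.92) and by Gas1 (0.92), Terc by Lsm5 (0.85), and Rn7s1 by Gm22304 (0.83). Rpph1 had Gm11772 (0.92), Rn7s2 had Gm21738 (0.90) and Rn7sk had Gm48275 (0.82), with its own near copy Gm24447 at 0.71. All 12 points of each correlation share library and scaling. Each partner was picked as the highest among all other genes averaging 1 TPM or more. How high a correlation such a pick gives by chance was not tested. Gm22304, Gm48275 and Gm11772 averaged only 1.66, 1.36 and 1.08 TPM, and Gm21738 ranged from 1.26 to 391 TPM.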

How the data were processed

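Each library was deposited as 1 table of TPM per gene symbol. The unit is inferred from the deposited values, which sum to 1000000. Per the submitters' processing notes, HISAT2 and mm10 were used; the quantifier, its annotation and how it split shared reads are not given in the sources used here. Of 54735 symbols, 54106 were found in GENCODE M21, which gave loci and transcript sequences.

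The 8 RNAs, the partner and marker lists and the tests were chosen with earlier results of these data known. Genotypes came from the labels. limma 3.58.1 in R 4.3.3 (lmFit, eBayes with trend) was run on log2(TPM + 1) for the 11764 genes averaging 1 TPM or more, the 3 groups in 1 fit, Benjamini-Hochberg adjusted over all genes, and was tested on simulated data. Pair ratios were tested by exact two-sided permutation in Python 3.11.15, adjusted over 12 tests. Sequences were compared with blastn 2.17.0, at 90% identity over 50 bases, and Biopython 1.88. Permutation p-values rest on these embryos alone. The limma p-values also draw on a spread fitted over other genes, so they move with the filter. Rpph1 in dKO against control kept its difference of 0.43, with an SE of 0.106 as deposited. That SE was 0.0885 with the 5 TPM filter and 0.183 with no filter.

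Named genes are the 8 RNAs, the 3 genes most correlated with each (1 or 2 printed), at most 4 called genes per partner list and comparison, the defining gene of a complex, and Rnu11 and Trp53. Genes sharing exons or sequence with the 8 were added after their values were seen. Alternatives were a pseudocount of 0.1, 2 other filters, 4 scalings, 2-group fits, a replicate block and leaving out each embryo. Chosen after seeing the data were leaving out mitochondrial genes, or control embryo 1 and dKO embryo 2. A subunit of RNA polymerase III and the sequence of 1 RNA are not reported here.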

Additional observations from a re-analysis of the deposited data

Results flagged for a closer look

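Of 33 groups of 4 embryos examined, 1 held an embryo far from the other three: mitochondrially encoded genes took 5.44% of TPM in dKO embryo 2, and the nearest other dKO embryo had 1.011%. That gap was 0.952 of the range of the dKO group. Chance flags about 1 in 20 such groups. The same library had the lowest Rn7s2 level and the lowest summed share of the 8 RNAs, 53.2%. With mitochondrial genes left out of the library total, the 8 RNAs took 58.9 ± 2.36% of control, 58.0 ± 2.703% of cKO and 58.7 ± 2.27% of dKO libraries (SD, n = 4 each).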

How the results depend on the processing

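Counts of called genes moved with scaling and with the filter. In cKO against control, 4163 as deposited became 786 under median-shift centring, 810 under quantile normalization, 1539 under protein-coding rescaling and 1900 with a mean of at least 5 TPM. In dKO against control, 610 became 992, 1029, 1080 and 294, and in dKO against cKO, 4636 became 698, 798, 1139 and 2220. The 5 TPM filter left 5803 genes to test, of which 32.7, 5.07 and 38.3% were called, against 35.4, 5.19 and 39.4% of 11764. With no filter, 4474, 535 and 5869 of 39624 genes were called. Genes called higher and lower in dKO against control numbered 210 and 400 as deposited and 640 and 440 under protein-coding rescaling. In dKO against cKO they numbered 72 and 4564, and 247 and 451 under centring. Without control embryo 1 and dKO embryo 2 the count in dKO against control was 359. Leaving out each embryo in turn gave 2468 to 4325, 333 to 571 and 3082 to 4851 genes for the 3 comparisons, lowest without cKO embryo 2, control embryo 4 and cKO embryo 2.

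Of the 8 RNAs, 1 was called in each comparison as deposited. In cKO against control it was 2 under centring and without control embryo 1 and dKO embryo 2, and 1 to 2 when each embryo was left out. In dKO against control it was 0 by limma under centring, rest rescaling (all genes outside the 8 set to an equal sum), a pseudocount of 0.1, no filter, 2 groups only, the replicate block and without those 2 libraries, and 0 to 1 when each embryo was left out. In dKO against cKO it was 2 with a mean of at least 5 TPM, centring and quantile normalization, 0 with no filter, 2 groups only, rest rescaling, the replicate block and without those 2 libraries, and 0 to 1 when each embryo was left out.

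Signs turned only for differences that were not called as deposited. Rn7s2 in cKO against control became -0.19 under centring and -0.10 under protein-coding rescaling, and Rpph1 became -0.072 under centring. In dKO against control, Rn7s2 became 0.0442 under protein-coding rescaling and 0.0422 without the 2 libraries, Rny1 became 0.00526 and Rny3 0.0559 under quantile normalization, and Rny3 0.0398 under protein-coding rescaling. In dKO against cKO, under centring and protein-coding rescaling Rn7s1 became 0.12 and 0.0708 and Rn7s2 0.19 and 0.14. Rmrp there became -0.39 under quantile normalization (limma adjusted p = 0.0282). That setting sets values by rank, and Rmrp ranked 4th or 5th in cKO and 6th or 7th in dKO. By construction it gives each of Rn7s2 and Rn7sk the same value in every library. When each embryo was left out, Rn7sk spanned -0.0834 to 0.0396 in cKO against control, and in dKO against control Rn7s2 spanned -0.0614 to 0.0247, Rn7sk -0.0203 to 0.10, Rny1 -0.28 to 0.0640 and Rny3 -0.23 to 0.24. The log2 ratio Rny1/Rny3 spanned -0.19 to 0.14, -0.18 to 0.0225 and -0.23 to 0.10 in the 3 comparisons, and Rn7s1/Rn7s2 -0.20 to 0.0406 in dKO against cKO. With 3 embryos against 4 the smallest exact permutation p is 0.0571. The cause of these changes was not tested.

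The labels do not say that replicate numbers pair embryos. Same-numbered embryos correlated at -0.10 to 0.07 in their deviations, and at most 1 of 4 correlated best with its own number. These correlations cannot show whether embryos shared a litter or a batch. With the number as a replicate block, limma called 2979, 409 and 3608 genes. The block ended the calls of Rpph1 in dKO against control (adjusted p = 0.109) and of Terc in dKO against cKO (adjusted p = 0.0875). Ratio tests by sign flips of same-numbered pairs cannot go below 0.125. TPM keeps no depth, so which small changes depth would hide is unknown.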
